A study of Homo sapiens with 12 samples.

Results

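The genes of tissue factor and of fibrinolysis were followed across 4 siRNA conditions in RCC4 cells. They were 7 genes, chosen by symbol: F3 (tissue factor), its inhibitors TFPI and TFPI2, the thrombin cofactor gene THBD, the plasminogen activator genes PLAU and PLAT, and PLAUR, the urokinase receptor gene. The 7 genes were chosen with earlier results of these data known. They are 7 of the 23106 symbols counted, and all 7 were among the 13000 genes with enough counts to test. RCC4 is a human clear cell renal cell carcinoma (ccRCC) line without functional VHL, the ubiquitin ligase subunit that marks HIF-α for destruction, so that HIF-1α and HIF-2α build up without hypoxia. Cells in all 4 conditions were reverse transfected with pools of siRNA at 2 nM in total and harvested after 48 h. Control cells received 2 nM control siRNA, HIF-1α knockdown cells 1 nM HIF1A siRNA and 1 nM control siRNA, HIF-2α knockdown cells 1 nM HIF2A siRNA (against EPAS1) and 1 nM control siRNA, and double knockdown cells 1 nM of each HIF siRNA and no control siRNA. There were 3 biological replicates per condition, numbered 1 to 3, and all 12 polyA libraries came from this 1 line.

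Tissue factor is a membrane protein that binds factor VII(a) and starts the extrinsic clotting cascade, and the complex also signals through protease-activated receptors. Fibrinolysis runs the other way: urokinase (PLAU) and tissue plasminogen activator (PLAT) turn plasminogen into plasmin, which dissolves fibrin and opens the matrix around cells, and PLAUR holds urokinase at the cell surface. Renal carcinoma is known for clots and for growth of tumor into the renal vein, and HIF targets are the core of its transcriptional program.

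Of the 7 genes, F3 moved most in every comparison with control siRNA, and TFPI, which encodes its main inhibitor, did not pass the test in any. Promoters are therefore shown for F3 and, as the inhibitor gene whose promoter holds the same kinds of motif, for TFPI2. Each is the 250 bases before the start site, from RefSeq (GRCh38.p14), read 5′ to 3′ on the gene's own strand. Capitals mark every match, on either strand, to GGGCGG (an Sp1 motif), TGANTCA (an AP-1 motif) and GCGNGGGCG (an EGR1 motif).

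F3, chr1:94541760-94542009, minus strand: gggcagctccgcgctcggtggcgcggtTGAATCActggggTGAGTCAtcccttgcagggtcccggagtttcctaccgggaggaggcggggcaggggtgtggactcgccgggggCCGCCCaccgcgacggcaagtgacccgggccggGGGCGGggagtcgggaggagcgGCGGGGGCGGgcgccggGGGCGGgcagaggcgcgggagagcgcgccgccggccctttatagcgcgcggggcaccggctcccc

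TFPI2, chr7:93890754-93891003, minus strand: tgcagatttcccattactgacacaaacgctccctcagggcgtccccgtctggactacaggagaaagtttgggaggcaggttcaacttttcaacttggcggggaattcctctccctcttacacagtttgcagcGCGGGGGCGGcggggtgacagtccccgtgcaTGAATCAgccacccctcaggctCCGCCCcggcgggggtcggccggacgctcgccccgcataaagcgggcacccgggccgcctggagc

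The F3 window holds GGGCGG at 4 places, starting 137, 104, 78 and 65 bases before the start site, and TGANTCA at 2, starting 223 and 210 bases before it. GCGNGGGCG starts 82 bases before the F3 start site and overlaps the GGGCGG at 78. In the TFPI2 window GGGCGG starts at 114 and 65 bases before the start site, TGANTCA at 87, and GCGNGGGCG at 118, overlapping the first GGGCGG. Neither window holds ACGTG or GCGTG, the core letters of a hypoxia response element. Of 35116 promoter windows of that length, 42.6% hold GGGCGG, 6.57% TGANTCA, 8.41% GCGNGGGCG, 18.5% ACGTG and 32.2% GCGTG. The table of promoters matched 5 of the 7 genes (F3, TFPI, TFPI2, PLAU and PLAUR). The PLAUR window and 1 of the 2 PLAU windows hold GCGTG, which in PLAUR overlaps GCGNGGGCG. That PLAU window also holds GGGCGG, starting 66, 51 and 40 bases before the start site, and the PLAUR window TGANTCA, starting at 186. The TFPI window holds none of the motifs.

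The libraries held 13263168 to 20451433 counts. HIF1A mRNA was 96.7 ± 33.6 CPM (each library's counts scaled to the same total, SD, n = 3) with control siRNA, 18.3 ± 3.62 with HIF1A siRNA, 121 ± 13.3 with HIF2A siRNA and 28.7 ± 4.09 in the double knockdown. EPAS1 mRNA was 157 ± 16.9, 114 ± 17.7, 10.1 ± 1.53 and 8.94 ± 2.16 CPM in the same order, so that the targeted mRNA was low wherever its siRNA was given. EPAS1 was also lower in the 3 HIF1A siRNA libraries than in any control library, with a log2 fold change of -0.47 that did not pass the test (edgeR, adjusted p = 0.28). HIF1A was higher in every double knockdown library than in any HIF1A siRNA library. That log2 fold change, 0.66, did not pass the test either (adjusted p = 0.18). All 9 markers listed for renal tubular carcinoma cells were expressed, with PAX8 among them. At an adjusted p under 0.05 (edgeR), 2 were lower and 2 higher in the double knockdown against control siRNA (CA9, CDH6, KRT18 and NDUFA4L2). The shares over all 13000 genes were 6.42% lower and 3.86% higher. CA9 and NDUFA4L2 were also lower with HIF1A siRNA (1.33% of all genes). The 7 endothelial markers, which matter because endothelium also makes TFPI, PLAT and THBD, summed to at most 0.633 CPM in a library, and PECAM1 had no count in any. Of 7 leukocyte and 7 stromal markers, 3 and 4 had enough counts to test, with sums of 36.3 to 68.8 and 21.6 to 85.7 CPM, PTPRC and CD3E had no count in any library, and the part of these markers in the results was not tested. In these bulk samples fewer cells with an mRNA and less of it per cell cannot be told apart.

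Counted over the 7 genes, 4 (F3, PLAU, PLAUR and PLAT) were called lower in the double knockdown against control siRNA and none higher, at an adjusted p under 0.05, where 6.42% of the 13000 genes were called lower and 3.86% higher. HIF2A siRNA gave 1 lower call, F3, against a background of 0.192%. HIF1A siRNA gave 0 calls with edgeR, where 1.33% of the 13000 genes were called lower. At an unadjusted p under 0.05 it gave 2 of the 7 genes (F3 and PLAU), against 8.61% of the 13000 in either direction, and DESeq2 called 1 (F3), against 2.29% in either direction. These 3 comparisons share the control libraries. Because the 7 genes were chosen with earlier results of these data known, their shares beside the background are a description and not a test. Between knockdowns, 2 genes were called lower in the double knockdown than with HIF1A siRNA (F3 and PLAT, background 0.969%), 2 lower than with HIF2A siRNA (F3 and PLAU, background 3.22%) and 1 lower with HIF2A than with HIF1A siRNA (F3, background 0.454%).

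By ranges alone, 4 of the 7 genes (F3, PLAUR, PLAT and THBD) had every double knockdown library below every control library, where 8.55% of all genes did. For F3 alone the same held with HIF1A siRNA (background 4.24%) and with HIF2A siRNA (background 2.86%). The double knockdown lay wholly below HIF1A siRNA for F3, PLAUR, PLAT and THBD (background 4.46%) and below HIF2A siRNA for F3 and THBD (background 5.52%), and HIF2A siRNA lay below HIF1A siRNA for F3 and PLAT (background 3.52%). Within pairs of the same replicate number, 6 genes, all but TFPI, were lower than control in all 3 pairs of the double knockdown (background 25.4%), 4 with HIF1A siRNA (F3, TFPI, PLAU and THBD, background 15.4%) and 1 with HIF2A siRNA (F3, background 12.1%). The median log2 fold change of the 7 genes was -0.20 with HIF1A siRNA, -0.31 with HIF2A siRNA and -0.48 in the double knockdown, while over all 13000 genes the median was 0.00 in each of these comparisons.

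F3 fell with the loss of HIF-2α and fell further when both HIF-α mRNAs were targeted. F3 mRNA was 246, 274 and 245 CPM in control siRNA replicates 1, 2 and 3, and 173, 206 and 156 CPM with HIF1A siRNA. With HIF2A siRNA it was 120, 74.0 and 92.4 CPM, and in the double knockdown 48.8, 52.8 and 43.2 CPM. The 4 conditions did not overlap, and within each replicate number the order was the same: control, HIF1A siRNA, HIF2A siRNA, double knockdown. Relative to the control library of the same replicate, F3 stood at 70.3, 75.3 and 63.9% with HIF1A siRNA, at 48.8, 27.2 and 37.9% with HIF2A siRNA, and at 20.0, 19.4 and 17.8% in the double knockdown.

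**Figure D1:**
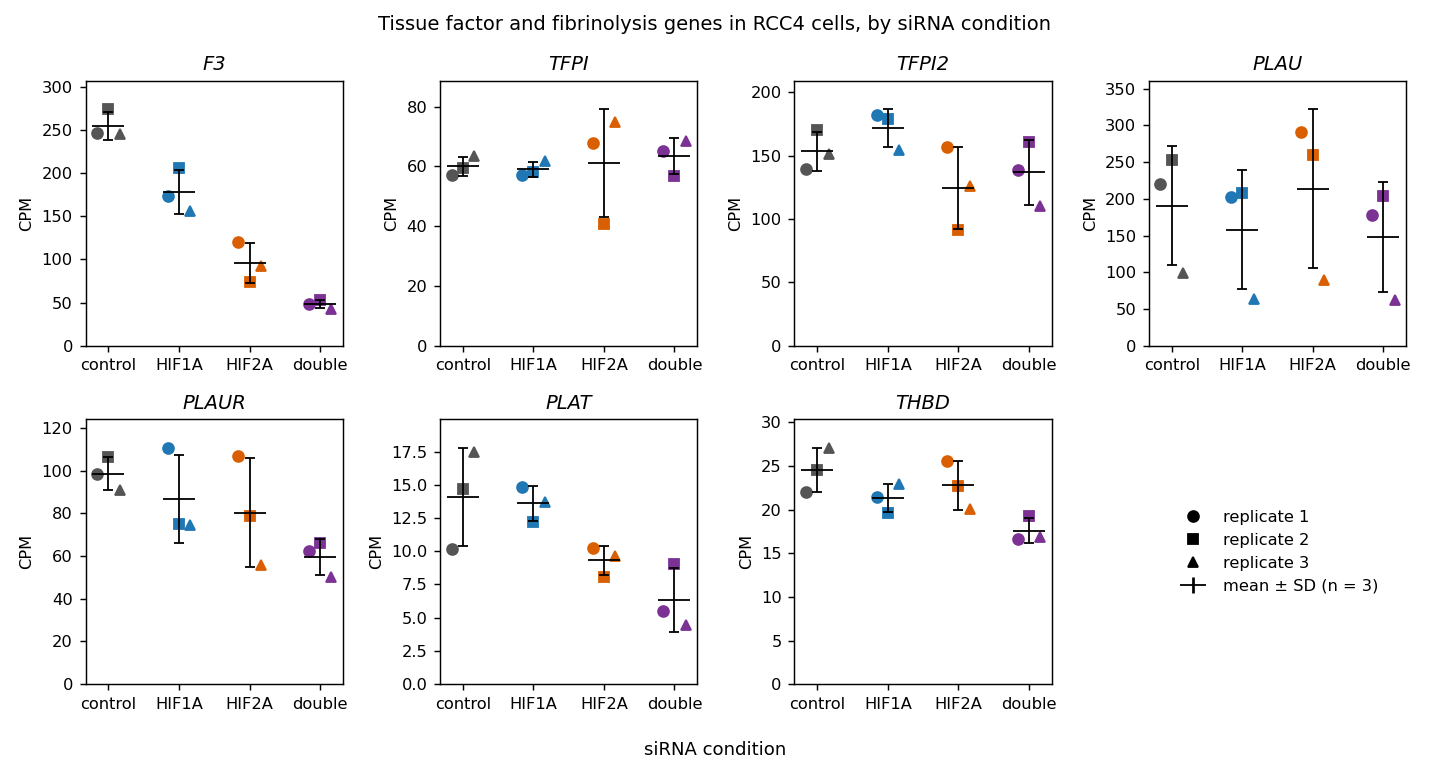
Level of each of the 7 genes in CPM (linear axis from 0) in the 12 libraries, by siRNA condition. Symbols are replicates, and horizontal lines with bars are mean ± SD (n = 3). F3 steps down from 255 to 48.3 CPM on average with no overlap between conditions, and PLAU in replicate 3 lies below the other two replicates in every condition.

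The change of F3 with HIF2A siRNA was -1.42 on the log2 scale (edgeR, standard error 0.15, adjusted p = 0.000644), and that of the double knockdown -2.40 (standard error 0.16, adjusted p = 1.47e-07). HIF1A siRNA gave a log2 fold change of -0.52 (standard error 0.15, 95% confidence interval -0.84 to -0.20). Its unadjusted p was 0.0033 and its adjusted p 0.141, so F3 was not called with edgeR, although all 3 pairs were lower. With DESeq2 it was called, at an adjusted p of 0.0469. Leaving out HIF2A siRNA replicate 2, a library of neither compared condition, also gave a call for HIF1A siRNA (edgeR, log2 fold change -0.52, adjusted p = 0.00245). That fit raised the lower calls with HIF1A siRNA over all genes from 173 to 275. Leaving out replicate 2 as a whole gave a call for F3 too (adjusted p = 0.00988). In the other 18 of 21 alternatives F3 was not called with HIF1A siRNA, and without the replicate block its adjusted p was 0.997.

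The direct comparisons between knockdowns gave the same order. F3 was lower with HIF2A siRNA than with HIF1A siRNA (log2 fold change -0.90, standard error 0.15, adjusted p = 0.00337). The double knockdown was below HIF1A siRNA, at -1.89 ± 0.15 (standard error) on the log2 scale (adjusted p = 1.24e-05), which is what HIF2A siRNA added on top of HIF1A siRNA. It was below HIF2A siRNA too, at -0.99 ± 0.15 (adjusted p = 0.00129), which is what HIF1A siRNA added on top of HIF2A siRNA. Without replicate 3 the changes of F3 were -1.43 for HIF2A siRNA against control siRNA, -0.97 for HIF2A against HIF1A siRNA and -0.93 for the double knockdown against HIF2A siRNA, and their adjusted p values were 0.0897, 0.0855 and 0.0740. The double knockdown against control siRNA kept its call for F3 in all 21 alternatives, with log2 fold changes from -2.48 to -2.35.

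The interaction of the siRNAs asks whether the double knockdown differs from the sum of the single changes on the log2 scale. For F3 it was -0.47 (standard error 0.21, 95% confidence interval -0.92 to -0.02), a level 72.3% of what that sum would give. Its unadjusted p was 0.0435 and its adjusted p 0.999. None of the 7 genes was called for the interaction with edgeR or DESeq2, and F3 was the 1 gene of the 7 with an unadjusted p under 0.05. The background was 0% of the 13000 genes called with edgeR, with 318 (2.45%) at an unadjusted p under 0.05.

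**Figure D2:**
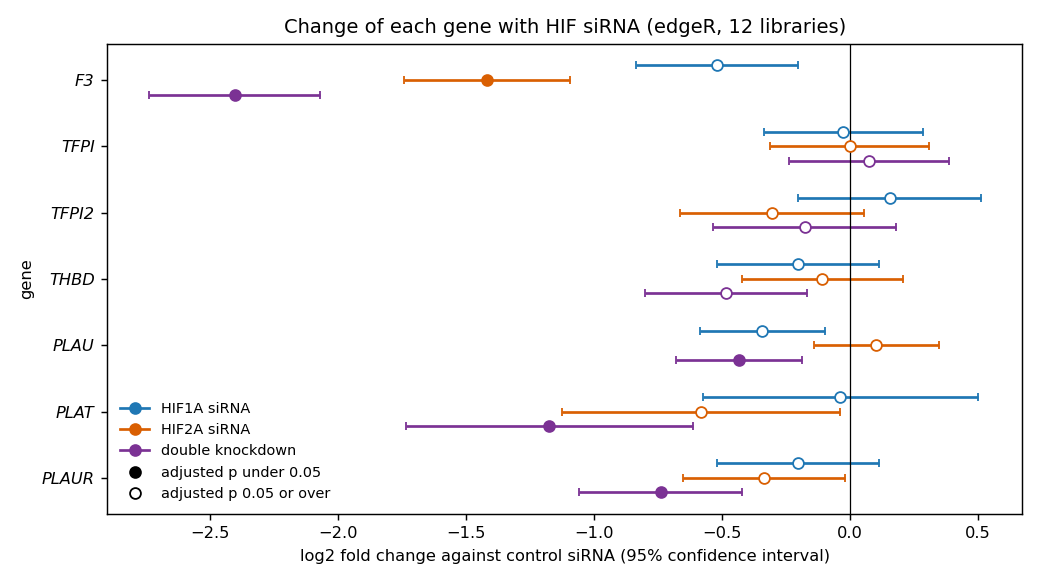
Log2 fold change of each gene against control siRNA with its 95% confidence interval, from 1 edgeR model of 12 libraries. Filled points passed an adjusted p of 0.05. F3 lies at -0.52, -1.42 and -2.40 for HIF1A siRNA, HIF2A siRNA and the double knockdown, whereas all 3 intervals of TFPI and of TFPI2 include 0.

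The inhibitors of tissue factor showed no such change. TFPI, which blocks the tissue factor and factor VIIa complex together with factor Xa, was 57.2, 59.5 and 63.5 CPM with control siRNA and 57.1, 58.0 and 62.0 CPM with HIF1A siRNA. With HIF2A siRNA it was 67.7, 40.7 and 74.8 CPM, and in the double knockdown 65.2, 56.9 and 68.6 CPM. The conditions overlapped, with replicate 2 of HIF2A siRNA as the lowest library. For the double knockdown the log2 fold change was 0.07 with a 95% confidence interval of -0.24 to 0.39 (edgeR, adjusted p = 0.79), for HIF1A siRNA -0.03 (-0.34 to 0.28) and for HIF2A siRNA -0.00 (-0.31 to 0.31).

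TFPI2, a matrix-bound Kunitz inhibitor of plasmin and of the tissue factor complex, was 140, 170 and 151 CPM with control siRNA and 182, 179 and 155 CPM with HIF1A siRNA. It was 156, 91.6 and 126 CPM with HIF2A siRNA and 139, 161 and 110 CPM in the double knockdown. The ranges overlapped, and again the lowest value was HIF2A siRNA replicate 2. None of the 3 comparisons with control siRNA was called, with log2 fold changes of 0.15, -0.31 and -0.18, and for the double knockdown the 95% confidence interval was -0.54 to 0.18. TFPI2 was lower with HIF2A siRNA than with HIF1A siRNA in all 3 pairs by a log2 fold change of -0.46 that did not pass the test (adjusted p = 0.256).

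Within a library, the ratio of F3 counts to TFPI counts needs no scaling between libraries. It was 4.25 ± 0.377 (SD, n = 3) with control siRNA, 3.03 ± 0.514 with HIF1A siRNA, 1.61 ± 0.324 with HIF2A siRNA and 0.768 ± 0.150 in the double knockdown. The lowest control ratio, 3.85, was above the highest with HIF1A siRNA, 3.55, and the double knockdown libraries, at 0.629 to 0.927, were the only ones with fewer F3 than TFPI counts. The TFPI transcript is the longer, so this ratio compares conditions and not the number of mRNA molecules of both genes.

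**Figure D3:**
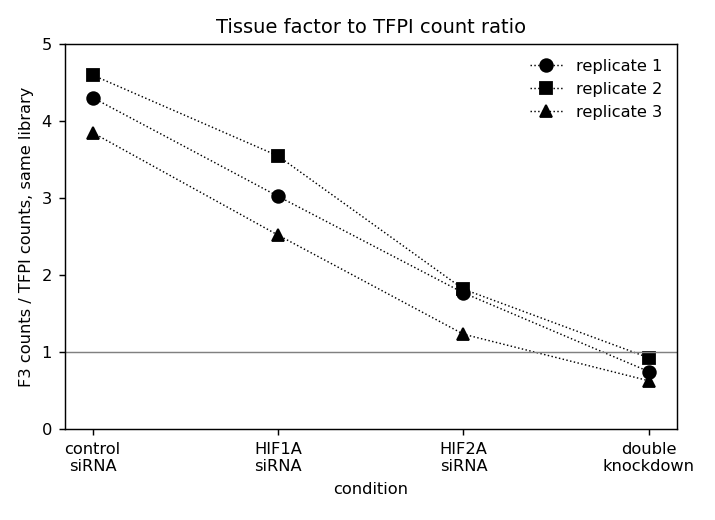
F3 counts divided by TFPI counts in the same library (linear axis), by condition, with dotted lines joining the libraries of 1 replicate number and a grey line at 1. All 3 replicates step down, from 3.85 to 4.60 with control siRNA to 0.629 to 0.927 in the double knockdown.

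THBD encodes thrombomodulin, the surface receptor that turns thrombin towards activation of protein C. It was 22.1, 24.6 and 27.1 CPM with control siRNA, 21.4, 19.6 and 22.9 CPM with HIF1A siRNA, 25.6, 22.7 and 20.0 CPM with HIF2A siRNA, and 16.7, 19.3 and 16.8 CPM in the double knockdown. The double knockdown libraries lay below every other library. Their log2 fold change against control siRNA was -0.48 (standard error 0.15), and the adjusted p of 0.0519 missed the threshold, while 6 of 21 alternatives called it, DESeq2 among them (adjusted p = 0.0296). Leaving out 1 library gave a call in 3 cases: control siRNA replicate 1 (adjusted p = 0.0474) and HIF2A siRNA replicates 1 (0.0461) and 2 (0.0277). The single siRNAs gave -0.20 and -0.11 and overlapped with control siRNA.

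The genes of plasminogen activation were lower in the double knockdown than with control siRNA, each by less than F3. PLAT was 10.2, 14.7 and 17.5 CPM with control siRNA, 14.8, 12.2 and 13.7 CPM with HIF1A siRNA, 10.2, 8.08 and 9.64 CPM with HIF2A siRNA and 5.51, 9.02 and 4.43 CPM in the double knockdown. Its counts per library were 91 to 292. The double knockdown did not overlap with control or HIF1A siRNA, and its replicate 2 lay among the HIF2A siRNA values. PLAT fell in the double knockdown, with log2 fold changes of -1.18 ± 0.26 (standard error) against control siRNA (edgeR, adjusted p = 0.0101) and -1.14 ± 0.26 against HIF1A siRNA (adjusted p = 0.0461). HIF1A siRNA alone gave -0.04 (adjusted p = 0.99) and HIF2A siRNA alone -0.58 (unadjusted p = 0.038, adjusted p = 0.70). The call against control siRNA was lost without control siRNA replicate 3 (-0.95, adjusted p = 0.0711), double knockdown replicate 1 (-1.12, 0.0574) or double knockdown replicate 3 (-0.90, 0.0737), and without replicate 3 as a whole (-0.78, 0.262). The call against HIF1A siRNA was lost in 10 of 21 alternatives, with adjusted p values up to 0.617, among them those without any 1 of the HIF1A siRNA libraries, control siRNA replicate 2, HIF2A siRNA replicate 3 or double knockdown replicate 1 or 3.

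PLAUR was 98.2, 106 and 91.1 CPM with control siRNA, 111, 75.2 and 74.6 CPM with HIF1A siRNA and 107, 78.7 and 55.8 CPM with HIF2A siRNA. In the double knockdown it was 62.5, 66.0 and 50.0 CPM, below all control and all HIF1A siRNA libraries. In the double knockdown PLAUR fell, by -0.74 ± 0.15 (standard error) on the log2 scale against control siRNA (adjusted p = 0.0052). With HIF1A siRNA the change was -0.21 (adjusted p = 0.79) and with HIF2A siRNA -0.34 (unadjusted p = 0.039, adjusted p = 0.70), replicate 1 being slightly above its control under both. Without replicate 3 the double knockdown gave -0.67 for PLAUR, with an adjusted p of 0.125. Against HIF1A siRNA the double knockdown gave -0.54 (adjusted p = 0.107), which became a call in 5 of 21 alternatives, such as DESeq2 (adjusted p = 0.0307), leaving out HIF2A siRNA replicate 2 (0.0422) and leaving out replicate 2 as a whole (0.0331).

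Replicate 3 was the lowest library of every condition for PLAU, as it was for PLAUR. Replicate number took 89.9% of the variance of log2 CPM for PLAU, against 29.0% for PLAUR. PLAU was 221, 253 and 98.7 CPM with control siRNA, 203, 208 and 64.4 CPM with HIF1A siRNA, 291, 260 and 90.1 CPM with HIF2A siRNA, and 178, 203 and 62.3 CPM in the double knockdown. The conditions overlapped across replicates, so that the test of PLAU rests on the pairs. In the double knockdown PLAU stood at 80.4, 80.5 and 63.3% of its paired control, and the fall was -0.43 ± 0.11 (standard error) on the log2 scale (adjusted p = 0.0265). With HIF1A siRNA it stood at 91.9, 82.2 and 65.4% (log2 fold change -0.34, unadjusted p = 0.0095, adjusted p = 0.27), and with HIF2A siRNA at 132, 103 and 91.3% (0.10, adjusted p = 0.91).

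Between knockdowns, PLAU was lower in the double knockdown than with HIF2A siRNA by -0.54 ± 0.11 (standard error) on the log2 scale (adjusted p = 0.0152) and differed from HIF1A siRNA by -0.09 (95% confidence interval -0.34 to 0.15). With HIF2A siRNA PLAU was higher than with HIF1A siRNA in all 3 pairs, by a log2 fold change of 0.44 (adjusted p = 0.0691). That comparison passed with DESeq2 (adjusted p = 0.013) and without control siRNA replicate 1 (0.0329) or HIF2A siRNA replicate 2 (0.0298). Without the replicate block PLAU was not called in the double knockdown (log2 fold change -0.37, adjusted p = 0.906). Its call against control siRNA was lost in 7 of 21 alternatives, that one among them. It was also lost without control siRNA replicate 2 (edgeR, adjusted p = 0.0557) or 3 (0.173), and without double knockdown replicate 1 (0.127) or 3 (0.122). Leaving out replicate 1 or 3 as a whole gave 0.0743 and 0.392. The call against HIF2A siRNA was lost in 7 of 21 alternatives as well. These were without HIF2A siRNA replicate 1 (0.0724) and without double knockdown replicate 1 (0.120) or 3 (0.0849). They were also without replicate 1 (0.120) or 3 (0.203) as a whole, without the block (0.994) and with only the compared libraries (0.123). C10orf55, annotated on the opposite strand across the start of PLAU, had 6 to 41 counts per library against 1280 to 5430 for PLAU.

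The spread of the 7 genes over the 12 libraries was divided between siRNA condition, replicate number and a remainder, on log2 CPM. For F3, siRNA condition took 96.3% and replicate number 0.65%. PLAU was the reverse, with 8.54% for siRNA condition and 89.9% for replicate number. For PLAT and THBD siRNA condition took 74.5 and 70.6%, for PLAUR 53.1% beside 29.0% for replicate number, and for TFPI2 43.9%. TFPI had the smallest siRNA share, 4.05%, and the remainder, 52.2%, was the largest of the 7.

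**Figure D4:**
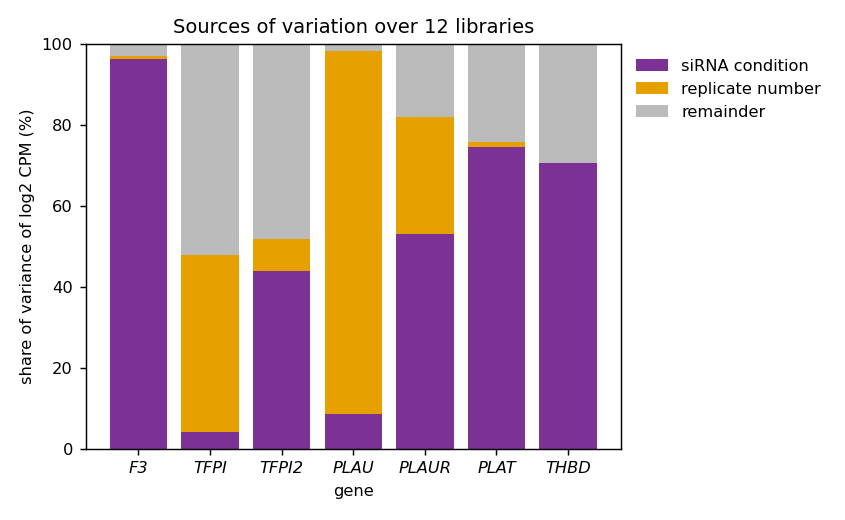
Share of the variance of log2 CPM over 12 libraries taken by siRNA condition, by replicate number and by the remainder, in percent, for each gene. F3 is nearly all siRNA condition (96.3%), PLAU nearly all replicate number (89.9%), and TFPI mostly remainder and replicate number.

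Levels of different genes were compared only per kilobase of the canonical transcript. With control siRNA, F3 had the highest level, 111 ± 7.09 CPM per kilobase (SD, n = 3), followed by PLAU at 81.4 ± 34.7, PLAUR at 72.1 ± 5.61 and TFPI2 at 69.5 ± 6.96, and then by TFPI at 15.6 ± 0.834, THBD at 6.08 ± 0.622 and PLAT at 4.61 ± 1.20. The ranges of F3 and PLAU overlapped, as did those of PLAU, PLAUR and TFPI2 and those of THBD and PLAT. In the double knockdown F3 was 21.0 ± 2.10 CPM per kilobase, below every value of PLAU, TFPI2 and PLAUR and above every value of TFPI. Part of this order depends on the length used, since the union of all exons is longer than the canonical transcript for every gene except THBD. Per kilobase of that union PLAUR was 22.1 CPM with control siRNA (20.4 to 23.9), below every value of PLAU (33.5 to 85.7) and TFPI2 (57.1 to 69.5), and in the double knockdown it was below every value of F3. TFPI was then below THBD with control siRNA, and THBD and PLAT no longer overlapped. F3 kept the highest mean with control siRNA and stayed below PLAU and TFPI2 in the double knockdown with either length.

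Correlations were taken over the 12 libraries, which share replicate numbers and conditions, after the mean of each replicate number was subtracted from log2 CPM. Pearson's r was then 0.927 between PLAUR and THBD, 0.876 between F3 and PLAT and between PLAUR and PLAT, 0.851 between F3 and PLAUR, and -0.04 between F3 and TFPI. With log2 CPM as it stands, the same pairs gave 0.767, 0.866, 0.712, 0.757 and -0.06. Among the other 12999 genes tested, those most like F3 with the replicate means removed were GGH (r = 0.974), WNT5A (0.968), PLEKHG4B (0.966), ARL2BP (0.962) and EDN1 (0.961), and without that step these 5 had r of 0.70 to 0.942. Most like TFPI2 were PLGRKT (0.990), MIR155HG (0.983) and SDHD (0.975), most like TFPI PDCD10 (0.950), and most like PLAU CYP27B1 (0.968). PLAT was most like CSF2 (0.981), PLAUR like RASA3 (0.966) and THBD like ATG16L2 (0.939). Without that step r was 0.892 for PLGRKT, 0.772 for PDCD10, 0.708 for CYP27B1, 0.604 for CSF2, 0.911 for RASA3 and 0.494 for ATG16L2. CYP27B1 had only 5 to 27 counts in a library, and CSF2 11 to 559. These values describe 12 libraries and carry no test.

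The partners of the 7 genes were taken from 6 lists chosen with earlier results of these data known. The lists held 90 genes in all, of which 60 were tested. Of these 14 passed the test in at least 1 of the 7 comparisons, as did 11.1% of the 13000 genes. The counts of these lists in the double knockdown against control siRNA stand beside 6.42% of the 13000 genes called lower and 3.86% higher. With lists chosen this way they are a description and not a test. Among 12 genes for protease-activated receptors and thrombin-side partners, 9 were tested, and 2 were called lower and 1 higher in the double knockdown against control siRNA. F2RL1, the receptor PAR2 that the tissue factor complex cleaves, rose from 82.4 ± 24.8 to 110 ± 32.8 CPM (log2 fold change 0.42, adjusted p = 0.0234) and was higher in all 3 pairs. P4HB and PDIA3, protein disulfide isomerases, of which P4HB is linked to the activation of tissue factor at the cell surface, fell by log2 fold changes of -0.36 (adjusted p = 0.0217) and -0.45 (adjusted p = 0.00492). Both were also higher with HIF2A than with HIF1A siRNA, by 0.40 and 0.41 on the log2 scale (adjusted p = 0.0354 and 0.0265, background 1.46% called higher). HIF1A siRNA alone gave -0.32 for P4HB and -0.35 for PDIA3 (edgeR, adjusted p = 0.147 and 0.0791), lower in all 3 pairs. The double knockdown differed from HIF1A siRNA by -0.04 and -0.09 (adjusted p = 0.91 and 0.75). For F2RL1, HIF1A siRNA alone gave 0.12.

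The clotting factors themselves were nearly absent. Of 16, 4 were tested, all under 5 CPM, and their sum was at most 8.88 CPM in a library, while F7, F9, F13B and KNG1 had no count in any. None was called in the double knockdown with edgeR or DESeq2, and 0 had an unadjusted p under 0.05. PLG, the gene of plasminogen, and HGF, which urokinase can activate, also had no count in any library.

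Among 13 inhibitors of plasminogen activators, plasmin and thrombin, 6 were tested and 1, SERPINB8, was called lower in the double knockdown (background 6.42%). SERPINB8, an intracellular serpin, was 39.8, 29.7 and 39.4 CPM with control siRNA and 28.4, 15.9 and 28.1 CPM in the double knockdown. The groups did not overlap, and the log2 fold change was -0.61 (adjusted p = 0.0113).

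Among 19 genes for plasminogen, its receptors and partners of the urokinase receptor, 15 were tested, and 5 were called lower and 1 higher in the double knockdown (background 6.42% and 3.86%). LRP1, an endocytic receptor that clears plasminogen activators bound to their inhibitors, fell by a log2 fold change of -0.73 (adjusted p = 0.00458), and MRC2, a collagen receptor that associates with PLAUR, by -0.55 (adjusted p = 0.0319). The integrin genes ITGA5 and ITGB5 fell by -0.54 (adjusted p = 0.00149) and -0.42 (adjusted p = 0.00983). With HIF1A siRNA alone LRP1 already gave -0.58 (edgeR, adjusted p = 0.0744) and was lower in all 3 pairs. The double knockdown differed from HIF1A siRNA by -0.15 for LRP1 (adjusted p = 0.75). HIF1A siRNA alone gave -0.23 for MRC2, -0.13 for ITGA5 and -0.02 for ITGB5. ANXA2, part of a surface receptor for PLAT and plasminogen, rose by 0.35 (adjusted p = 0.0387) from 947 ± 70.8 to 1210 ± 50.2 CPM. ENO1, the glycolytic enzyme enolase that also binds plasminogen, fell in the double knockdown (-0.48, adjusted p = 0.00711) and was the 1 gene of the 6 lists called with HIF1A siRNA (-0.55, adjusted p = 0.0087, background 1.33% called lower), and none of them was called with HIF2A siRNA.

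Of 11 matrix proteases and their inhibitors 7 were tested, and MMP9 was the 1 called in the double knockdown, where it was lower (background 6.42%). It was 25.7, 28.4 and 26.6 CPM with control siRNA and 13.2, 15.5 and 4.82 CPM in the double knockdown (log2 fold change -1.41, standard error 0.25, adjusted p = 0.0023), below all control libraries. Of 19 transcription factors known at promoters such as these, all were tested, and 2 were called lower and 1 higher (background 6.42% and 3.86%). ETS1 fell by -0.53 (adjusted p = 0.00783) and YAP1 by -0.45 (adjusted p = 0.0183). FOS, a subunit of AP-1, was called higher (1.45, adjusted p = 0.0121), although its values were dominated by replicate number: control siRNA gave 13.4, 1.91 and 0 CPM and the double knockdown 32.3, 6.17 and 0 CPM, with no FOS count in replicate 3 of either condition.

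**Figure D5:**
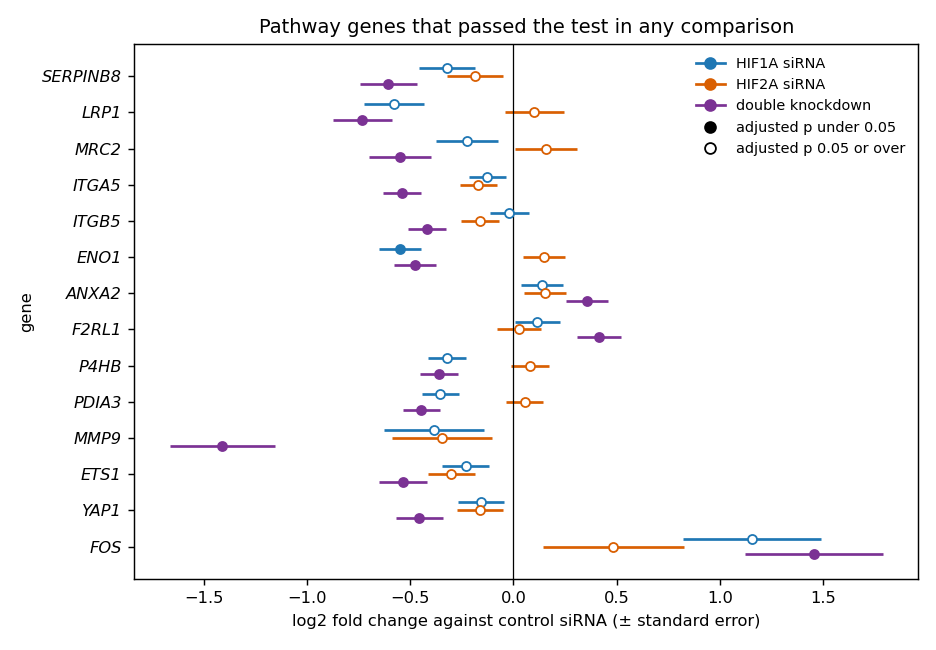
Log2 fold change against control siRNA, with bars of ± 1 standard error, for the 14 listed partner genes called in at least 1 comparison. Filled points passed an adjusted p of 0.05 (edgeR). In the double knockdown MMP9 (-1.41) lies furthest to the left, ANXA2, F2RL1 and FOS lie to the right of 0, and ENO1 has the 1 filled point for a single siRNA.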

How the data were processed

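Conditions and replicate numbers of the 12 libraries were taken from the labels. The authors prepared polyA libraries with a directional kit, trimmed adaptors with TrimGalore (0.3.3), aligned reads to GRCh37 (hg19) with HISAT2 (2.05), dropped multi-mapping fragments using Picard (2.0.1) and counted reads per UCSC-defined gene with HTSeq (0.5.4p3, intersection-strict). The deposited values are these raw counts, by gene symbol and not normalized. Whether the counting used strand is not given in the sources used here, so that genes overlapping on opposite strands are uncertain.

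All 12 libraries were fitted in 1 model of the deposited counts with the quasi-likelihood test of edgeR (4.0.16, R 4.3.3), with TMM normalization, edgeR's filter (minimum count 10, total 15), a replicate block, since the study's methods pair conditions by biological replicate, and Benjamini-Hochberg adjustment over 13000 genes. A gene was called at an adjusted p under 0.05. In deviations from condition means across genes, same-numbered libraries had correlations of 0.0963 to 0.738 (18 pairs) and others -0.642 to 0.441. P values measure the spread between these replicates of 1 line. CPM used TMM-scaled totals, ratios within pairs were taken after adding 0.5 CPM, and shares of variance used log2 CPM with a prior count of 2. Correlations used the same values after each replicate number's mean over the conditions was subtracted. The code was also run on simulated data with 200 genes changed in the HIF2A siRNA libraries only. Those counts were drawn from the model's own fit. The run therefore cannot show whether the test suits the real spread between replicates.

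The 7 genes, the 6 lists and the marker lists were chosen with earlier results of these data known. All 7 genes are named, with listed partners where they passed the test in any comparison, and the genes most like each of the 7 by Pearson correlation. Lengths came from the GENCODE annotation. Alternatives were DESeq2 size factors, no replicate block, no filter, a minimum of 10 counts in all libraries, DESeq2 (1.42.0), only the compared libraries, and each replicate number or library left out. 1 gene of the lists is not reported here. Single-cell data of the study are not analysed here.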

Additional observations from a re-analysis of the deposited data

How the results depend on the processing

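The counts of genes called among the 7 were recomputed under 21 alternatives (20 for the interaction, where using only the compared libraries gives the same 12). Without the replicate block, 1 gene (F3) was called in the double knockdown against control siRNA, 1 (F3) against HIF1A siRNA and 1 (F3) against HIF2A siRNA, and 0 for HIF2A against HIF1A siRNA, while F3 kept its call for HIF2A siRNA against control siRNA. The adjusted p values without the block were 0.906 for PLAU, 0.215 for PLAUR and 0.0772 for PLAT in the double knockdown against control siRNA, and 0.0653 for F3 in HIF2A against HIF1A siRNA. With DESeq2, 1 gene (F3) was called with HIF1A siRNA and 2 (F3 and PLAU) for HIF2A against HIF1A siRNA, and with no filter 2 in the latter. With only the compared libraries, the double knockdown gave 4 calls against HIF1A siRNA (F3, TFPI2, PLAUR and PLAT) and 1 (F3) against HIF2A siRNA. Leaving out 1 library or replicate number, the counts were 0 to 1 for HIF1A siRNA, 0 to 1 for HIF2A siRNA, 1 to 5 for the double knockdown, 1 to 3 for the double knockdown against HIF1A siRNA, 0 to 2 against HIF2A siRNA and 0 to 2 for HIF2A against HIF1A siRNA. The counts of 0 for HIF2A siRNA against control or HIF1A siRNA, and for the double knockdown against HIF2A siRNA, and the count of 1 for the double knockdown against control siRNA, were without replicate 3. The cause was not tested. Leaving out replicate 1 or 2 removes as many libraries. Over all genes, HIF2A siRNA against control siRNA gave 3, 41 and 1 lower calls without replicates 1, 2 and 3 (edgeR). The double knockdown against control siRNA gave 381, 1022 and 248 in the same order. The interaction gave 0 calls throughout. Signs turned only for log2 fold changes that were not called. That of TFPI with HIF2A siRNA was 0.0031 with DESeq2 size factors, 0.0059 with at least 10 counts in every library, 0.0248 without the replicate block, 0.0028 with DESeq2 and 0.0035 with only the compared libraries. With libraries or replicate numbers left out, TFPI ranged from -0.1317 to 0.097 with HIF1A siRNA, from -0.1318 to 0.2326 with HIF2A siRNA, from -0.1319 to 0.2069 for the double knockdown against HIF2A siRNA, from -0.1113 to 0.2531 for HIF2A against HIF1A siRNA and from -0.1099 to 0.2303 for the interaction. TFPI2 ranged from -0.1772 to 0.3134 for the double knockdown against HIF2A siRNA and from -0.3752 to 0.2115 for the interaction. PLAT ranged from -0.2988 to 0.2117 with HIF1A siRNA, PLAU from -0.0256 to 0.2241 and THBD from -0.2523 to 0.0518 with HIF2A siRNA, THBD from -0.0395 to 0.2345 for HIF2A against HIF1A siRNA, and PLAUR from -0.4123 to 0.1422 for the interaction. With 3 replicates of 1 line, PLAT at 91 to 292 counts per library had the widest intervals of the 7 genes.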
